A study of Rattus norvegicus with 56 samples.

Results

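Rat hippocampal neuron cultures collected 2 h after a session of repetitive transcranial magnetic stimulation (rTMS) were compared with cultures collected at 0 h, when the session ended. The members were chosen by title: 10 arrays at 2 h and 11 at 0 h, 21 of the 56 arrays of the series. The cultures came from embryonic day 18 (E18) Sprague-Dawley hippocampi and received 1 Hz stimulation, intermittent theta burst stimulation (iTBS, pulses in short bursts) or sham, in which the coil stood away from the plate. Each time held 4 sham and 4 iTBS arrays, with 3 arrays of 1 Hz at 0 h and 2 at 2 h, because the scanner software could not place the grid on the 1 Hz array of replicate 2 at 2 h, a series A array, which is not used. Total RNA of each sample was labelled with 1 dye and hybridized to 1 Agilent rat array. The numbers in the sample descriptions split the arrays into culture series, called A (1 to 18), B (19 to 36), C (37 and up) and D (numbers with the prefix D) here. Sham and iTBS had 1 array of each series at each time, whereas 1 Hz came from series B, C and D at 0 h and from C and D at 2 h. What a series was in the laboratory, and whether arrays of a group came from separate cultures, is not given in the labels, so p-values measure the spread between these samples, which may be technical. No untreated culture was collected at 2 h. All 3 arms were collected at the same hours after the session, although by the paper the 1 Hz session was slightly longer than the iTBS session. Hours after the session, the return to the home incubator and recovery from handling therefore cannot be told apart.

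The question was which transcripts differ between the end of the session and 2 h later, whatever the coil did, and whether that difference was the same in each arm and each culture series. Neurons answer synaptic activity and calcium entry with a wave of immediate-early genes, which need no new protein to be switched on. Fos and Egr1 encode transcription factors of this wave, Npas4 a factor induced by calcium entry in neurons, Arc a postsynaptic protein and Bdnf a neurotrophin. Messenger RNAs of this kind come and go within hours. Txnip encodes an arrestin family protein that binds thioredoxin, and its transcription follows glucose uptake.

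Levels are given as scaled log2 signal, in which each array has a mean of 0 over its probes, and a change is the level at 2 h minus that at 0 h. Between 68.4% and 78.0% of probes were well above background on these arrays. The 21 arrays correlated with each other at 0.962 to 0.993. Each array was most like another array of its own series in 21 of 21 cases, after the mean of its group was subtracted. The fit therefore carried arm and series as blocks. All 15 neuron markers and all 10 astrocyte markers were well above background on every array, and of 9 microglia markers Ptprc, which marks all leukocytes, was not well above background on any. In bulk RNA, fewer cells of a type and less RNA per cell cannot be told apart.

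Over all cultures, 0 of 30053 probes differed between 2 h and 0 h at an adjusted p of 0.05 (limma, Benjamini-Hochberg, percent called 0). At an unadjusted p under 0.05 there were 2809 probes (9.35%), 1496 higher (4.98%) and 1313 lower (4.37%) at 2 h. An array at 0 h and one at 2 h of the same arm and series formed a matched pair, and there were 10 pairs. In all 10 pairs, 110 probes (0.366%) were higher and 87 (0.289%) were lower. Fos lay between −1.03 and 3.21 on the 0 h arrays (median 2.10) and between −1.34 and 4.11 at 2 h (median 2.05). The times overlapped over nearly the whole range, and the fitted change was +0.04 ± 0.28 (SE; limma adjusted p 0.967), higher in 4 of 10 pairs. Changes of the other 5 genes chosen whatever their values were +0.35 ± 0.16 for Arc (adjusted p 0.521), +0.05 ± 0.30 for Egr1 (0.965), −0.03 ± 0.39 for Npas4 (0.985), +0.48 ± 0.15 for Bdnf (0.419) and −0.15 ± 0.36 for Txnip (0.893). In a fit without series A the changes were −0.42 for Fos, +0.10 for Arc, −0.46 for Egr1, −0.74 for Npas4, +0.30 for Bdnf and +0.52 for Txnip, and none passed.

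The change did not differ detectably between the stimulation arms. Tested within sham, 1 Hz and iTBS, 0 probes passed in each arm after adjustment, against 1410 (4.69%), 353 (1.17%) and 1410 (4.69%) at an unadjusted p under 0.05. The arm-by-time interaction found 0 probes after adjustment and 334 (1.11%) unadjusted. The 1 Hz arm had no series A array at either time, so arm and series are partly mixed in these tests. Their fit let the series differ in level but not in change, so a change that differs between series adds to the error. A difference between arms is therefore not excluded. Without 1 Hz at 2 h replicate 3 the counts were 16 within 1 Hz and 15 for the interaction, where that arm was left with a single 2 h array assumed to vary like the others.

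The change did differ between the culture series. The series-by-time interaction, an F test of whether the 4 series had the same change, found 158 probes (0.526%; limma, adjusted p under 0.05), among them 95 genes. In 148 of the 158 probes the largest change belonged to series A, against 3 in B, 5 in C and 2 in D. The median size of change over these probes, which the test itself selected, was 1.29 in A, 0.21 in B, 0.17 in C and 0.12 in D. Without series A the interaction found 0 probes. The count of 158 also moved with single arrays. It was 54 without iTBS at 0 h replicate 3 and 298 without iTBS at 2 h replicate 3, both of series A, and 278 without sham at 2 h replicate 3, also of series A. It lay between 67 and 100 without sham at 0 h replicate 1, 2 or 3, sham at 2 h replicate 4, 1 Hz at 0 h replicate 2, 1 Hz at 2 h replicate 1, iTBS at 0 h replicate 2, or iTBS at 2 h replicate 1 or 2.

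Series A was then tested by its own contrast, chosen after the interaction was seen. It held 4 of the 21 arrays, a sham pair and an iTBS pair, and its error came from the spread of all 21. In it 1890 probes passed (6.29%), 926 higher (3.08%) and 964 lower (3.21%) at 2 h. Fitted on its 4 arrays alone, without the spread of the other series, series A gave 5 probes. All 1890 moved the same way in both pairs. The contrast is built from those same pairs, so this agreement was largely set by the selection and is no replication. The same contrast found 0 probes in series B, C and D each, with 1646 (5.48%), 1361 (4.53%) and 2522 (8.39%) unadjusted. The series A count was 529 without iTBS at 0 h replicate 3 and 3145 without iTBS at 2 h replicate 3. With its sham arrays alone it was 1384, and with its iTBS arrays alone 1421. Both sham arrays and the iTBS array at 0 h of series A lay on 1 slide, and the iTBS array at 2 h on another. That array was also the dimmest of the 2 h arrays, with a 75th percentile signal of 1896, and 68.4% of its probes were well above background. The sham pair lay within a single slide, and the part of signal strength in these counts was not tested.

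**Figure D1:**
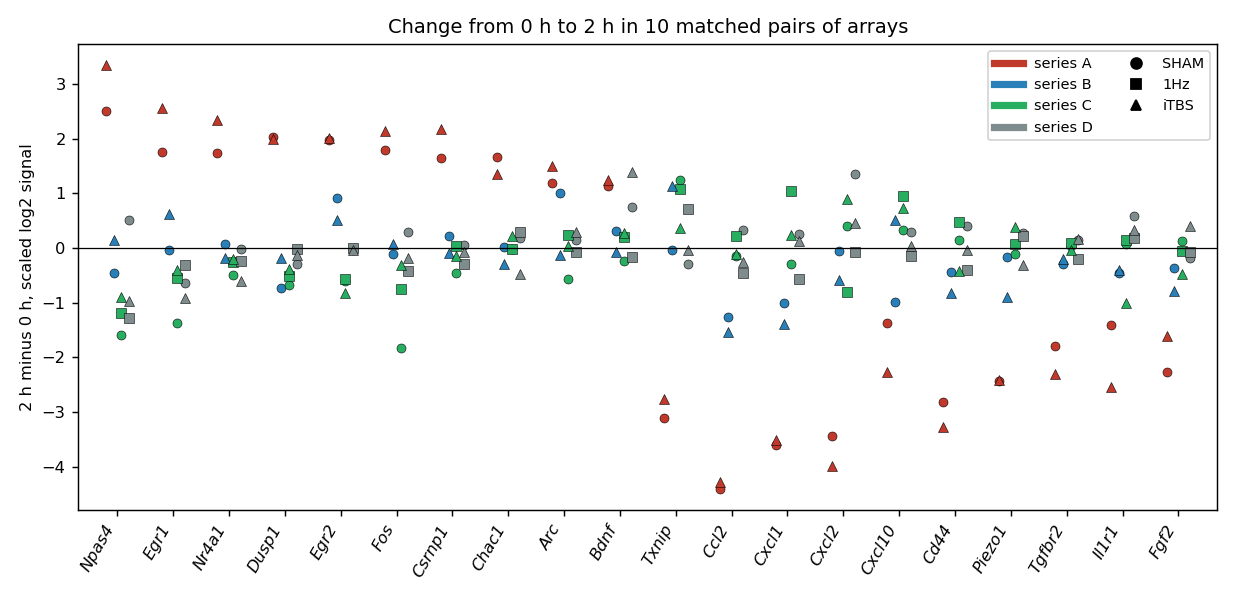
Change from 0 h to 2 h (scaled log2 signal) of 20 genes in each of the 10 matched pairs, with colour for the culture series and symbol for the arm. Both series A points stand apart from the other 8 pairs for Npas4, Egr1, Nr4a1, Dusp1, Fos, Txnip, Ccl2 and Cd44, while Arc and Bdnf have a pair of another series close to or above them.

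In series A, immediate-early genes rose between 0 and 2 h. Of 27 genes of Egr, Nr4a, Klf and other early factors, 12 rose and 2 fell, and of 11 AP-1 factors, 4 rose and none fell, where 3.84% of all 12289 genes tested rose and 3.77% fell. Of 30 synaptic and secreted activity-regulated genes, 6 rose. No member of these lists passed in series B, C or D, where no probe of any kind passed. The promoters of 3 of the genes that rose are shown because they hold the elements through which cAMP, calcium and growth factor signals are known to reach early genes. They are the 250 bases before the RefSeq start (GRCr8), with capitals marking the cAMP response element (CRE, TGACGTCA), its core (TGACG on either strand, which the full site also holds) and the serum response element (SRE, the CArG box).

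Dusp1, chr10:17184603-17184852, plus strand: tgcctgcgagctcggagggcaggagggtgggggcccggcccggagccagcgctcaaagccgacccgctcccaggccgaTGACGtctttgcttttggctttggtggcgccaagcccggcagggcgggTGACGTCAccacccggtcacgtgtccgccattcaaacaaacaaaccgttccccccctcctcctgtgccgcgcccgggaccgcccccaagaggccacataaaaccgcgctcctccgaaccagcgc
Egr2, chr20:21054442-21054691, minus strand: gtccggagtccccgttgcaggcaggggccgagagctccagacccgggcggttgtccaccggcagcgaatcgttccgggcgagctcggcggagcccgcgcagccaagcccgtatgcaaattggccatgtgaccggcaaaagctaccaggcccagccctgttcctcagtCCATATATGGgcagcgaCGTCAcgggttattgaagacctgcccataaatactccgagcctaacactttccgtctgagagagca
Nr4a1, chr7:134259888-134260137, plus strand: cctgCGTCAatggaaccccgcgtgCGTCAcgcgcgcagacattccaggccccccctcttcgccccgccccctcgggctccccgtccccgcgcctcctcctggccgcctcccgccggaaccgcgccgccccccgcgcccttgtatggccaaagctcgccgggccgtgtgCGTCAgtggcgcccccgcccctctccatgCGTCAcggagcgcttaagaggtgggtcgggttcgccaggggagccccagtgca

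The Dusp1 window held 1 full CRE, the Nr4a1 window 4 cores and the Egr2 window 1 SRE and 1 core. Among the 22 genes named for the series comparison, 15 had a promoter in the table. Of these, 1 held a full CRE, 7 a core and 2 (Egr1 and Egr2) an SRE. Over all 33469 promoters of this length, 1.59% held a full CRE, 18.2% a core and 1.5% an SRE. Of the genes with a core, Cxcl1 (2 cores) and Fgf2 (1 core) fell in series A and the others rose. Npas4, Bdnf and Slc2a2, which rose, held none of these elements. These are matches of letters and no binding was measured.

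Dusp1 encodes a phosphatase that switches off MAP kinases. In series A its level went from −0.01 to 2.02 in the sham pair and from −0.48 to 1.52 in the iTBS pair. The other series lay between −0.96 and 1.15 at 0 h (median 0.07) and between −1.35 and 0.85 at 2 h (median −0.80), so both series A arrays at 2 h stood above all other 19 arrays. The series A change was +2.02 ± 0.17 (limma adjusted p 5.2e-05), with an SE that takes its error from the fit of all 21 arrays. It was −0.59 in B, −0.52 in C and −0.15 in D, and the series differed (adjusted p 0.000657).

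Npas4 had the largest of these rises. Its level went from −0.36 to 2.15 after sham and from −1.58 to 1.77 after iTBS in series A. The other series reached −0.17 at 0 h and −0.52 at 2 h at most, and on all 6 arrays of series C the signal was not well above background. The series A change was +2.93 ± 0.36 (adjusted p 0.000805) and the series differed (adjusted p 0.00474), which was lost with the sham arrays of series A alone (0.0598).

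Nr4a1, an orphan nuclear receptor of the early wave, went from 5.29 to 7.03 after sham and from 5.03 to 7.37 after iTBS in series A. On the other arrays it lay between 4.63 and 5.71 at 0 h and between 4.20 and 5.66 at 2 h. Both series A cultures at 2 h were above all others, with a change of +2.04 ± 0.20 (adjusted p 0.000115; series differed, adjusted p 0.00279). Egr1 went from 3.28 to 5.03 and from 3.002 to 5.57 (+2.16 ± 0.33; series differed, adjusted p 0.0198). Egr2, a zinc finger factor of the same family, went from 1.07 to 3.06 and from 1.29 to 3.30 (+2.00 ± 0.26; 0.0103), but its level in series B reached 3.07 at 2 h, so the series overlapped in level. A second Egr2 probe changed by +1.18 in series A, where the series difference did not pass (adjusted p 0.0936).

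Fos went from 2.32 to 4.11 after sham and from 1.37 to 3.51 after iTBS in series A. Series B was already at 2.21 to 3.21 at 0 h and stood at 2.28 to 2.64 at 2 h, while series C lay at −1.03 to 0.74 and then at −1.34 to −0.71. The series A change was +1.97 ± 0.34 (adjusted p 0.00624) and that of series C −0.96 ± 0.28 (0.781). The test of the series difference (adjusted p 0.0345) was lost in 14 of 29 alternatives. Csrnp1, a nuclear protein of the early response, rose by 1.92 in series A (series differed, adjusted p 0.0279). Among members named after their values were seen, Fosb (+2.50), Atf3 (+2.07), Junb (+1.86), Nfil3 (+1.51) and Egr4 (+1.43) also rose in series A, and for these the test of the series difference did not pass (adjusted p 0.113, 0.0973, 0.316, 0.0947 and 0.242).

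Arc and Bdnf rose in series A, by 1.35 ± 0.24 (limma adjusted p 0.00666) and 1.20 ± 0.28 (0.0217). Arc went from 4.63 to 5.82 and from 4.18 to 5.69 in series A, and series B had 6.03 on its sham array at 2 h. Bdnf went from 4.09 to 5.23 and from 3.40 to 4.65. The series difference did not pass for either gene (adjusted p 0.118 and 0.288), so a change confined to series A is not shown for them. The other genes of the synaptic and secreted list that rose were Ccn1 (+1.46), a matricellular protein, Sertad1 (+1.39), Plk3 (+0.77) and Gadd45g (+0.63).

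**Figure D2:**
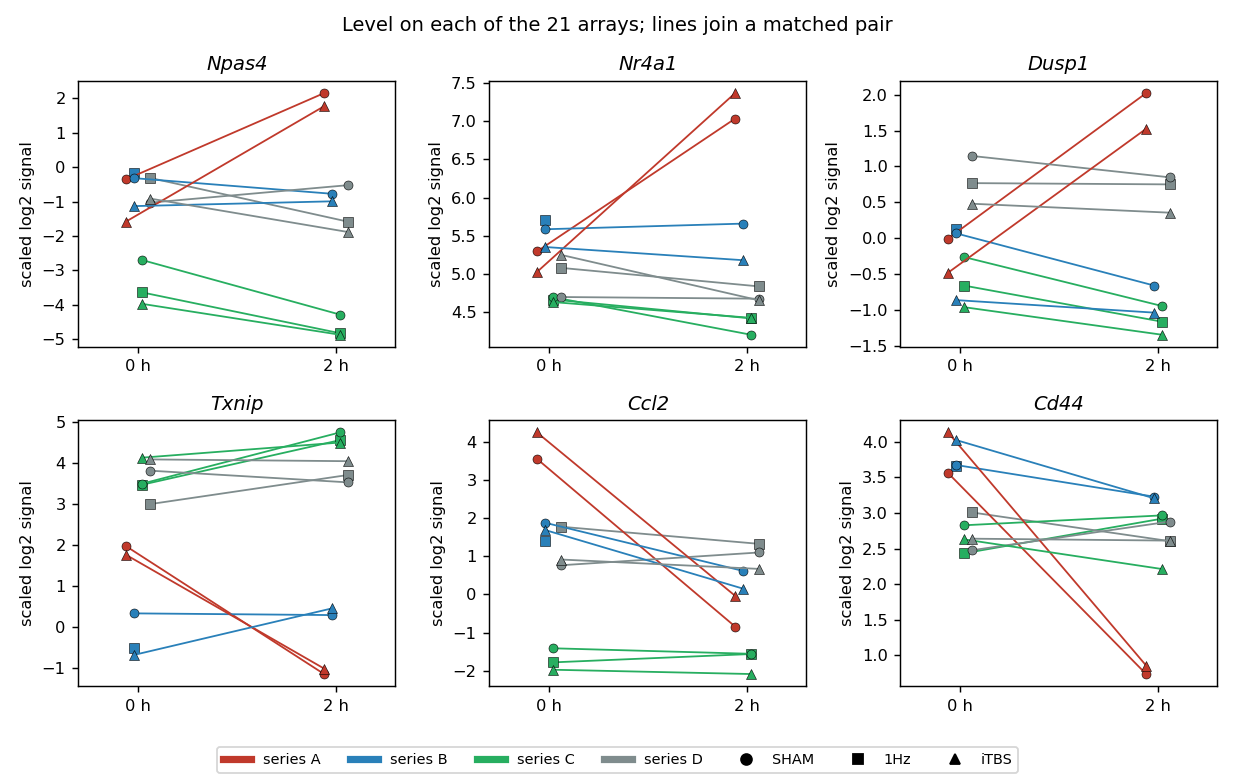
Level (scaled log2 signal) of 6 genes on each of the 21 arrays at 0 h and 2 h, with lines joining matched pairs, colour for the series and symbol for the arm. The red lines of series A go up for Npas4, Nr4a1 and Dusp1 and down for Txnip, Ccl2 and Cd44, more steeply than those of the other series, and the unjoined square is the 1 Hz array of series B at 0 h.

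Txnip fell in series A. It went from 1.97 to −1.14 in the sham pair and from 1.76 to −1.01 in the iTBS pair, a change of −2.94 ± 0.32 (limma adjusted p 0.000302), and the series differed (adjusted p 0.00301). Series C and D lay between 2.99 and 4.12 at 0 h and between 3.52 and 4.74 at 2 h. Series B lay between −0.68 and 0.34 at 0 h and at 0.29 and 0.46 at 2 h, low at both times. The related arrestins Arrdc3 and Arrdc4, the second of which also follows glucose, fell by 2.25 and 1.55 in series A, and for them the series difference did not pass (adjusted p 0.0608 and 0.0925). Of 11 genes tested in the list of glucose-responsive arrestins and partners, 3 fell (27.3%) and 1 rose (9.09%). Over all genes tested, 3.77% fell and 3.84% rose. The list member that rose was Hk1 (+0.75), a hexokinase.

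Chemokine genes fell in series A. There 7 of 13 NF-kB targets and inflammatory genes passed, all lower (53.8%), where 3.77% of all 12289 genes tested fell. Ccl2, the monocyte attractant, went from 3.56 to −0.84 after sham and from 4.25 to −0.04 after iTBS. The other series lay between −1.98 and 1.88 at 0 h and between −2.09 and 1.33 at 2 h, so series A began above all of them and ended within their range. The change was −4.35 ± 0.37 (limma adjusted p 5.2e-05; series differed, adjusted p 0.00301). In series B, Ccl2 was lower in both pairs, by 1.20 in the fit, which did not pass. Cxcl1, a neutrophil attractant, went from 3.99 to 0.39 and from 4.01 to 0.50 in series A (−3.56 ± 0.33; series differed, adjusted p 0.00315). It too was lower in both series B pairs, with a fitted change of −1.24 that did not pass.

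Other inflammatory genes moved the same way in series A. Cxcl2 was well above background on both arrays at 0 h and on neither at 2 h, and so was Cxcl10. In the main scaling Cxcl2 was therefore at least 4.05-fold lower and Cxcl10 at least 1.32-fold lower. Their fitted changes were −3.71 (limma adjusted p 0.00167) and −1.82 (0.00551). Over the alternatives these changes were as small as −1.03 for Cxcl2 and −0.24 for Cxcl10, so the bounds hold for the main scaling only. Icam1 (−1.62), an adhesion molecule, Birc3 (−1.73), an inhibitor of apoptosis, and Socs3 (−0.96), a feedback inhibitor of cytokine signaling, complete the 7. The series difference passed for Ccl2, Cxcl1, Cxcl2, Cxcl10 and Birc3, but Cxcl10 lost it in 22 of 29 alternatives and Cxcl2 in 12. Il1r1, the interleukin 1 receptor, fell by 1.97 in series A (series differed, adjusted p 0.0292), although on 1 of its arrays at 2 h it was not well above background. Cebpd, a factor of the acute phase response, fell by 1.54.

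Further genes were named because they led the series test. Cd44, the hyaluronan receptor, went from 3.56 to 0.74 after sham and from 4.13 to 0.86 after iTBS in series A, and the other 17 arrays lay between 2.21 and 4.03. Its change was −3.05 ± 0.27 (limma adjusted p 6.4e-05; series differed, adjusted p 0.00301), and a second probe gave −2.73. Piezo1, a mechanically gated ion channel, went from 4.23 to 1.80 and from 4.05 to 1.63 (−2.42 ± 0.21; 0.00279). Tgfbr2, a receptor of transforming growth factor beta, fell by 2.05 and Fgf2, a growth factor, by 1.93 (series differed, adjusted p 0.00349 and 0.0388), while a second Tgfbr2 probe changed by −0.83 and did not pass (0.428). In the other direction, Lpar2, a lysophosphatidic acid receptor, rose by 1.88 and Slc2a2, a glucose transporter, by 2.29 (0.0104 and 0.0354).

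Stress lists were split in series A. Of 23 genes of the ER stress and integrated stress response, 4 rose and 3 fell. Chac1, which degrades glutathione, rose by 1.51 (series differed, adjusted p 0.0396). Ppp1r15a (+1.28), which restores translation after stress, Herpud1 (+1.05) and Ddit4 (+0.94) also rose. Asns (−0.64) and Slc7a11 (−0.87), amino acid genes of the same response, and Sdf2l1 (−0.53) fell. Of 17 glucocorticoid and FoxO targets 5 rose, Bcl6 (+1.02), Klf15 (+0.64), Irs2 (+0.62), Sgk1 (+0.60) and Foxo1 (+0.50), and in none did the series difference pass. Of 14 clock and clock output genes 2 rose, Per1 (+0.86) and Nr1d2 (+0.55), and of 20 heat shock genes 1 fell, Bag3 (−1.22). In most of the other lists the counts were near the 3.84% of all genes that rose and the 3.77% that fell, or rested on 1 or 2 genes. Cytosolic ribosomal protein genes had 0 of 74 called in series A. Among 74 genes of the respiratory chain and ATP synthase 1 fell (1.35%). Both were below the 7.61% of all genes that passed. Of 18 MAP kinase feedback regulators 1 rose (Dusp1), of 16 cold-inducible and splicing genes 1 rose (Clk4, +0.56), and of 17 hypoxia genes 1 fell (Adm, −1.31). Of 15 Notch, BMP and Id targets 2 rose (Hes1 and Smad7) and 1 fell (Nrarp), and of 9 p53 targets 1 rose (Plk3) and 1 fell (Aen). None of 14 GABA-A receptor and chloride cotransporter genes and none of 25 potassium channel genes passed, where 7.61% of all genes did, a share of 1 or 2 genes in lists of this size.

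**Figure D3:**
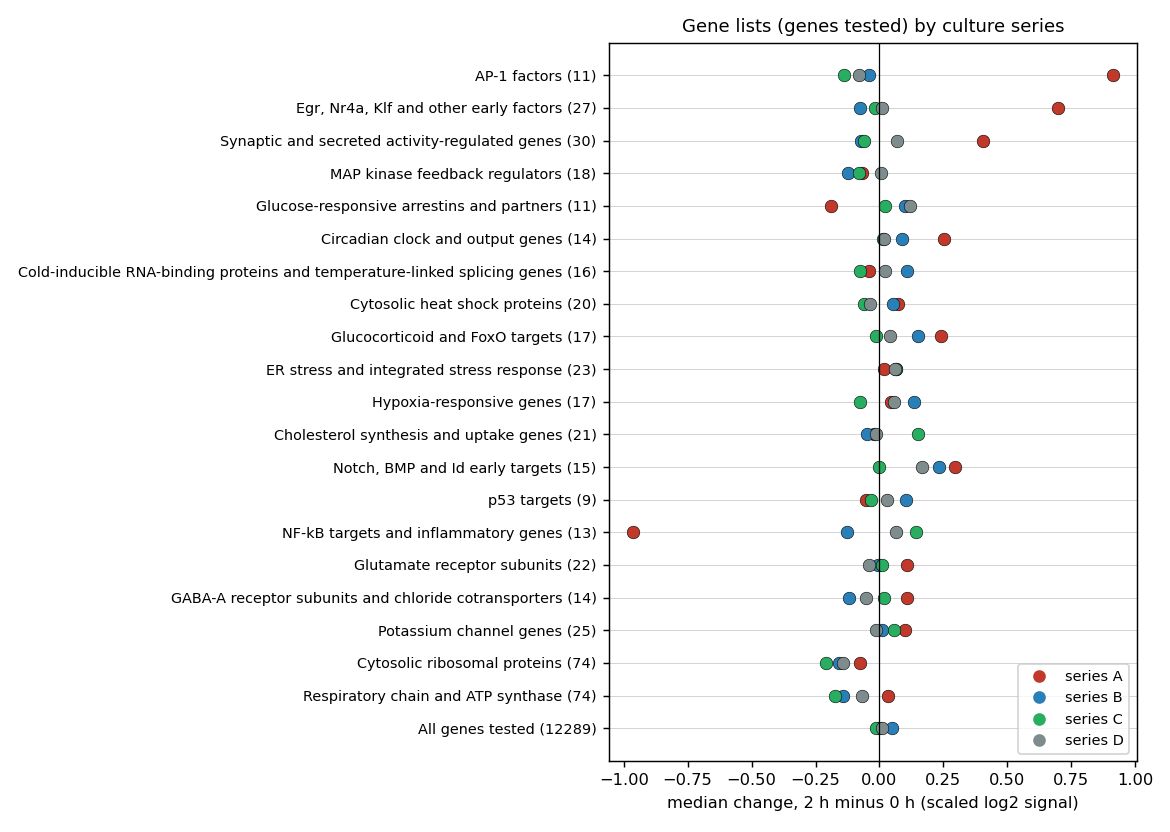
Median change from 0 h to 2 h (scaled log2 signal) over the tested genes of 20 lists and over all genes, with the number of genes tested in parentheses and 1 point per culture series. Series A stands at 0.91 for AP-1 factors, 0.70 for Egr, Nr4a, Klf and other early factors and −0.96 for NF-kB targets and inflammatory genes, while B, C and D lie between −0.21 and 0.23 in every list.

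Markers of cell types also moved in series A. The summed level of the 15 neuron markers was 11.03 and 11.07 at 0 h and 11.47 and 11.69 at 2 h in series A, against 10.56 to 11.62 and 10.43 to 11.27 in the other series. Of the 15, Camk2a (+1.22), Tubb3 (+0.97) and Slc17a7 (+0.86) rose. The summed level of the 9 markers of dividing cells tested went from between 8.38 and 8.41 to between 7.83 and 7.95, and 1 of them, Mcm2, fell (−0.72). Of 10 astrocyte markers 1 rose, Aldh1l1 (+0.67), while 4 of the 10 were higher and the median was −0.03. Of 10 endothelial, mural and fibroblast markers 2 rose, Pdgfrb (+1.79) and Pecam1 (+0.96), while their summed level changed by −0.12 in the sham pair and +0.31 in the iTBS pair. Over all genes 7.61% passed in series A. No tested microglia or oligodendrocyte lineage marker passed. By direction alone, 7 of 7 microglia and 13 of 15 neuron markers were higher in series A. The same held for 2 of 10 oligodendrocyte lineage and 0 of 9 dividing cell markers, and for 6123 of all 12289 genes. The summed microglia level changed by +0.007 in the sham pair and +0.72 in the iTBS pair. The part of cell composition in the early gene, chemokine and Txnip changes was not tested.

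The levels of series A at its other times were set beside these values with no test. Besides the 2 arrays at 2 h, series A had 9 arrays with a good grid: the sham and iTBS arrays at 0 h, 2 untreated arrays at 0 h, and 5 at 8 to 48 h. For 11 of the 22 genes named for the series comparison both 2 h arrays lay above all 9, and for 5 below all 9, where 5.21% of the probes tested lay above and 6.02% below. Most of these genes were named for their change from 0 h to 2 h in series A, and 2 of the 9 arrays are the 0 h arrays of that change, so the counts are a description and nothing is read from them. The 5 later arrays were 1 Hz at 8, 24 and 48 h and sham and iTBS at 48 h. Txnip was at 1.89 and 2.37 in untreated cultures and between 1.94 and 3.57 at 8 to 48 h, above the −1.14 and −1.01 at 2 h. Npas4 lay between −4.48 and −2.29 at 8 to 48 h, below its own level at 0 h. Cd44 was at 3.67 and 4.33 in untreated cultures and between 1.55 and 4.78 later. For the other 6 of the 22 genes, Arc, Piezo1, Cxcl1, Cxcl2, Cxcl10 and Il1r1, both 2 h arrays lay within the range of the later arrays.

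**Figure D4:**
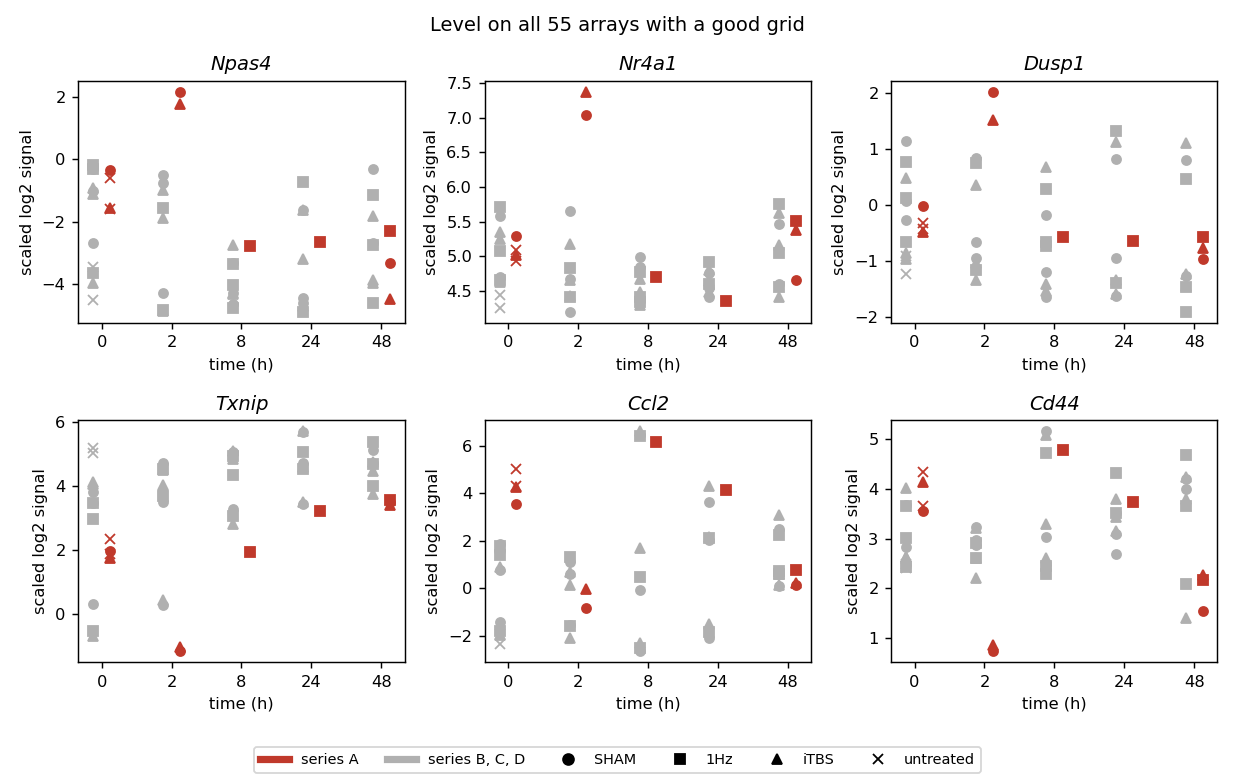
Level (scaled log2 signal) of 6 genes on all 55 arrays with a good grid against time, with series A in red, the other series in grey and symbols for sham, 1 Hz, iTBS and untreated cultures. The 2 red points at 2 h are the highest of all arrays for Npas4, Nr4a1 and Dusp1 and the lowest for Txnip and Cd44, and the red points at 8 to 48 h do not share these positions.

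Outside the series difference, a few genes moved alike in nearly every pair, although none passed over all probes. They were chosen after their values were seen, as the 10 named genes with the smallest p. Myom2, a sarcomere protein gene, had the smallest adjusted p (0.101). It lay between −3.47 and −0.47 at 0 h and between −2.52 and 0.55 at 2 h, since series differed in level. It was higher at 2 h in 10 of 10 pairs, by 0.89 ± 0.13 (SE), but on 4 of the 0 h arrays it was not well above background. It passed without sham at 2 h replicate 2 (adjusted p 0.0201) or without iTBS at 2 h replicate 3 (0.0454). Dusp6, which encodes the phosphatase of ERK, was lower in 9 of 10 pairs, by 0.37 ± 0.08 (limma adjusted p 0.179). Its fitted change was −0.21 in A, −0.42 in B, −0.43 in C and −0.37 in D. In series A, where Dusp1 rose, Dusp6 changed by −0.43 in the sham pair and +0.004 in the iTBS pair. Ackr3, a scavenging chemokine receptor, was higher in 10 of 10 pairs, by 0.38 ± 0.08 (0.179), and Lyl1, a helix-loop-helix factor, by 0.73 ± 0.14 (0.179). For these genes the series difference did not pass either.

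**Figure D5:**
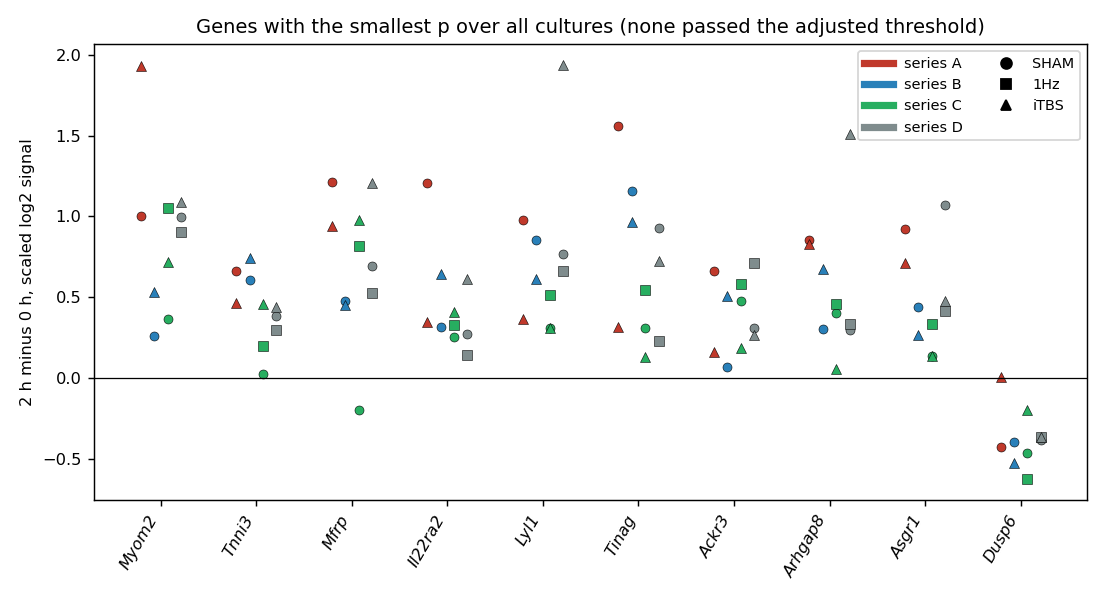
Change from 0 h to 2 h (scaled log2 signal) in the 10 matched pairs for the 10 named genes with the smallest p over all cultures, with colour for the series and symbol for the arm. All points of 8 genes lie above 0, Mfrp has 1 pair below it, and Dusp6 lies below 0 in 9 pairs, though none of the 10 passed after adjustment.

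Genes for cytosolic ribosomal proteins were each slightly lower at 2 h. All 74 had a negative change, with a median of −0.15, against a median of +0.01 over all 12289 genes, of which 6636 were higher. None of the 74 passed after adjustment and 16 were lower at an unadjusted p under 0.05, as were 3.43% of all genes. The medians were −0.07 in series A, −0.16 in B, −0.21 in C and −0.14 in D. Of 74 genes of the respiratory chain and ATP synthase 60 were lower, with a median of −0.10. These genes are bright, and the brightest of 3 equal groups of probes also had a median of −0.02. Under quantile normalization 53 of the 74 ribosomal protein genes were lower, with a median of −0.03, so the uniform direction depended on the scaling.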

How the data were processed

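The deposited scanner files of the authors hold an intensity per spot, the processed signal of Agilent Feature Extraction 12.0.3.1, not normalized between arrays. The deposited value table holds the score of each probe, which the authors made by z-transformation within each array, and it served as an alternative. Each array carried 62976 spots. Here log2 signals of noncontrol spots were averaged by probe without outlier spots, which dropped 420 of 45598 probes, and z-scored within each array as in the study's methods, then put back on a log2 scale by 1 common factor, the median of the arrays' SDs (4.06). Probes well above background on at least 10 of the 21 arrays were tested, 30053 in all. Symbols came from the RefSeq accessions of a GRCr8 table (15720 probes tested, 12289 genes, each by its brightest probe); the files name build rn4, so no probe positions are given.

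limma 3.58.1 (R 4.3.3) fitted arm, series and time, with 14 residual degrees of freedom, two-sided, with Benjamini-Hochberg adjustment at 0.05. Interactions were F tests, and the contrast within each series was added after the data were seen. The code was tested on simulated data. The members, gene lists and tests were chosen with earlier results of these data known. Named were the passing probes moving alike in all 10 pairs (there were none), up to 4 passing members of each list, the 6 genes Fos, Arc, Egr1, Npas4, Bdnf and Txnip, and, added after the data were seen, leading genes of the series test and of the time test; further list members named with values were also chosen after seeing them. As no gene passed for time, list members were taken from the series test. Numbers in the sample titles did not pair arrays. The normexp alternative used median foreground signals with an offset of 50. All columns were assigned to samples. An array with a badly placed grid (largest correlation with another array 0.013) was left out. The number of arrays limits the precision. Some results, the counts of some gene lists among them, are not reported here.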

Additional observations from a re-analysis of the deposited data

Results flagged for a closer look

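The change from 0 h to 2 h differed between the culture series for 158 probes, the only interaction that passed here. Among the genes named, the adjusted p of the series-by-time test was 0.000657 for Dusp1, 0.00279 for Nr4a1, 0.00474 for Npas4, 0.0103 for Egr2, 0.0198 for Egr1, 0.0279 for Csrnp1, 0.0345 for Fos and 0.0396 for Chac1, all of which rose in series A. It was 0.0104 for Lpar2 and 0.0354 for Slc2a2, which also rose there by their brightest probe. For genes that fell in series A it was 0.00301 for Ccl2, 0.00315 for Cxcl1, 0.028 for Cxcl2, 0.0439 for Cxcl10, 0.00301 for Txnip, 0.00301 for Cd44, 0.00279 for Piezo1, 0.00349 for Tgfbr2, 0.0292 for Il1r1 and 0.0388 for Fgf2. What distinguishes series A from the others is not given in the labels.

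Of 128 groups of 4 arrays examined, 5 held an array whose gap to its nearest neighbour was large against the range of the group. Chance alone would give about 1 in 20 among arrays that are alike, whereas each group held 1 array of each series. Many of the genes were also named for their change in series A. Nothing is therefore read from the count or from the place of series A in it. The gap was 0.832 of the range for Chac1 and 0.84 for Cxcl2 in iTBS at 2 h, on replicate 3, and 0.86 for Cd44 in sham at 2 h, on replicate 3, all 3 of series A. It was 0.885 for Il1r1 in sham at 0 h, on replicate 3, and 0.891 for Ackr3 in sham at 0 h, on replicate 4.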

How the results depend on the processing

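The count of probes that differed between 2 h and 0 h was 0 in most alternatives, including scaling by the 75th percentile, quantile normalization, normexp, the authors' z-scores, all filters and all arrays with a good grid. It was 1 with the slide beside arm and series, 1 without series A, 1 without series C, 5 within series A by itself, 5 by the study's published criteria, and 0 to 2 without 1 array. Title numbers correlated in deviations by 0.315 on average but −0.557 at the lowest, so they did not pair arrays, and with them as a replicate block in place of the series the count was 0; 12 of 21 arrays correlated best with their own number. The replicate block gave 0 within each arm and for the arm-by-time interaction too. Within 1 Hz the count was 1 with a filter of 3 arrays, 1 with no filter and 0 to 16 without 1 array. The arm-by-time count was 0 to 15 without 1 array. Sham and iTBS stayed at 0 in every alternative run. The series-by-time count was 0 without series A and 54 to 298 without 1 array. The change within series A was called for 1161 probes with no filter and for 529 to 3145 without 1 array, in series B 41 with no filter and 0 to 10, in series C 1 with a filter of 3 arrays and 0 to 1, and in series D 0 to 3. The cause of these moves was not tested. Of the 1890 series A probes, 1811 also passed after quantile normalization, 1738 after scaling by the 75th percentile and 1367 after normexp. Of 20 named genes that passed the series test, 8 (Ccl2, Cd44, Cxcl1, Dusp1, Nr4a1, Piezo1, Tgfbr2 and Txnip) passed in each of 29 alternatives, and the call was lost in 22 for Cxcl10, 21 for Fgf2, 19 for Chac1, 16 for Slc2a2, 14 for Fos, 12 for Cxcl2, 11 for Csrnp1, 10 for Il1r1, 4 for Egr1, 2 for Lpar2 and 1 each for Npas4 and Egr2. No called value changed sign. With 4 arrays in series A, small changes there were not detectable.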

Other observations

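The series differed for other genes too, of which a few are given here, chosen by hand after their values were seen and not standing for any group. Among those that rose in series A were Pcdh8, an activity-regulated protocadherin, by 1.05 (limma adjusted p of the series difference 0.00701), Syt3, a synaptotagmin, by 1.26 (0.0489) and Cxcr4, a chemokine receptor that guides migrating neurons, by 1.32 (0.0239). Among those that fell in series A were Erbb2, a receptor tyrosine kinase, by 1.36 (0.0062), Nrg1, which encodes ligands of that receptor family, by 1.10 (0.0155) and Unc5b, a netrin receptor, by 1.24 (0.0206). Slc1a5, a glutamine transporter, fell by 1.51 (0.0083) and Eif4ebp1, an inhibitor of translation initiation that is controlled by mTOR, by 1.25 (0.0206). These are the values of the probe that passed, and 3 other Nrg1 probes and another Unc5b probe were lower in series A with no series difference that passed (adjusted p 0.136 to 0.468 for Nrg1 and 0.137 for Unc5b).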
